A study of Rattus norvegicus with 12 samples.

Results

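Expression of the 3 genes that encode the gonadotropin subunits, Lhb, Fshb and Cga, and of Gnrhr, the gene of the receptor for gonadotropin-releasing hormone (GnRH), was measured in cultured cells of the rat anterior pituitary. Every array probe set whose single gene symbol in the platform annotation was one of these 4 was included. This gave 6 probe sets among the 31042 that are not array controls, namely 1 each for Lhb and Cga and 2 each for Fshb and Gnrhr. Of these, 5 passed the filter on low signals that left 18625 probe sets for testing, and 1 Fshb probe set did not. The 12 samples, 1 array each, comprised 6 that received vehicle and 6 that received 10 nM GnRH for 40 min on culture day 3. All cells came from adult female Sprague-Dawley rats that had been ovariectomized 2 weeks earlier, with 13 to 15 pituitaries pooled per experiment, and every culture, vehicle or GnRH, was kept in medium with 0.2 nM E2 (estradiol) and 10% charcoal-treated serum. The cells were a large-cell fraction, about 6% of those recovered from sedimentation at unit gravity, in which 40 to 60% stained for luteinizing hormone (LH) against fewer than 7% in unfractionated cells, so other pituitary cells remained in the cultures. There were 3 such preparations, called enrichment sets I, II and III, each with 2 vehicle and 2 GnRH samples. Nothing in the labels states that the samples of a set came from separate cultures, and the p-values below measure only the spread between these samples.

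Gonadotropes secrete LH and follicle-stimulating hormone (FSH), each a pair of one shared alpha subunit, encoded by Cga, and one hormone-specific beta subunit, encoded by Lhb or Fshb. Thyrotropes pair the same alpha subunit with the beta subunit of thyroid-stimulating hormone. GnRH from the hypothalamus binds its receptor on gonadotropes, which couples to G proteins, phospholipase C, calcium and MAP kinases, and so releases stored hormone and acts on the promoters of the subunit and receptor genes. The Lhb promoter is known for its response to the early growth response factor EGR1 beside NR5A1 (steroidogenic factor 1) and PITX1. That of Cga is known for cyclic AMP response elements and an NR5A1 site, and that of Fshb for its response to activin.

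The 2 promoters whose genes moved most closely together over the arrays are shown here, each as the 250 bases before the transcription start in RefSeq on build GRCr8, both on the + strand, read 5′ to 3′. Capitals mark matches, on either strand, to 4 motifs. They were AAGGNCA (NR5A1-type), CNCCCCCA (EGR-type), TGANGTCA (cyclic AMP response element, CRE-type) and TATAAA (named TATA box). The Lhb stretch is chr1:105037207-105037456 and the Cga stretch is chr5:54283090-54283339.

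Lhb promoter: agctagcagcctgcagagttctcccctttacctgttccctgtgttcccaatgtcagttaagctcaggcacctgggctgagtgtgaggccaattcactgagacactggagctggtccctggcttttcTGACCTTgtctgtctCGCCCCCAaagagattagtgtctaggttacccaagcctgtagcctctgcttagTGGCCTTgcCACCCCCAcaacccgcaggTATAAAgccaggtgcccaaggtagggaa

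Cga promoter: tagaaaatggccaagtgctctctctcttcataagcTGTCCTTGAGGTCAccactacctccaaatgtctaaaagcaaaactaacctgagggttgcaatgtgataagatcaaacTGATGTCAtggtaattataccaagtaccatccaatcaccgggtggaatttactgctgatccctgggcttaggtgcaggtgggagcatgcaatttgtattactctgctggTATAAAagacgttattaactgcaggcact

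The Lhb stretch held 2 NR5A1-type matches, at 124 to 118 and 56 to 50 bases before the start, both on the - strand. Beside each of them lay an EGR-type match, at 109 to 102 and 47 to 40 bases before the start. The TATA box began 28 bases before the start. A further motif, TAATC (PITX-type, not in capitals), matched 97 to 93 bases before the start, between the 2 pairs. The Cga stretch held 2 CRE-type matches, at 209 to 202 and 138 to 131 bases before the start, an NR5A1-type match that shares 1 base with the farther of them, and a TATA box that began 29 bases before the start. It had 0 EGR-type and 0 PITX-type matches, and the Lhb stretch had 0 CRE-type matches. Of 33465 rat promoters searched over the same length, 17.6% held the NR5A1-type, 11.33% the EGR-type, 8.884% the CRE-type, 20.5% the PITX-type and 12.93% the TATA motif. The AP-1-type motif TGANTCA, held by 6.341% of promoters, had 0 matches in the promoters of Lhb, Cga and Gnrhr. The Gnrhr promoter held 2 NR5A1-type matches, 1 PITX-type match and 1 TATA box. RefSeq gives Lhb a second start, whose promoter held the same TATA box only. These motifs were chosen with the sequences of these promoters known, and a match is a description of letters, not a binding site. Promoter entries were matched for 3 of the 4 genes, all but Fshb.

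The arrays differed in the signal of the bacterial spike-in controls, RNAs added in known amounts to every hybridisation, relative to the sample RNA. After each array was scaled to the same trimmed mean, the geometric mean of 18 spike-in probe sets was 2264 to 11705 on 5 arrays (the 4 of set I and vehicle 5 of set III) and 53482 to 320024 on the other 7. The geometric mean of 27 negative control probe sets, for bacterial RNAs, was 14.8 to 22.4 on the 5 arrays and 52.8 to 183 on the 7. Set I thus held only low spike-in arrays, set II only high ones, and set III one low array (vehicle 5) and 3 high ones. The ratio of 3′ to 5′ signal of Gapdh, a sign of RNA and product length, was 13.3 to 43.7 on the low and 7.76 to 20.7 on the high spike-in arrays. That of beta-actin was 17.1 to 28.3 on the low and 5.46 to 29.9 on the high ones. Markers of the labelled cell type were looked up. Of 10 gonadotrope markers, among them the 4 genes described here, 9 passed the filter, as did 3 of 3 somatotrope and 2 of 2 lactotrope markers. None of the 12 arrays listed a gonadotrope marker at 0. The same held for the markers of every other cell type looked up, so it is no check of the cell type. Markers of other pituitary cells were present too. The somatotrope markers summed to 17982 to 71619 on the low spike-in arrays and 322135 to 1057248 on the high ones, and the lactotrope markers to 18424 to 47036 and 59347 to 122631. The gonadotrope markers, which include the 4 genes described here, summed to 36128 to 102693 and 271480 to 503974. Cga, also a thyrotrope marker, and Lhb were the brightest of them and weigh most in these sums. Marker by marker, the log2 difference of high minus low spike-in arrays was 2.76 for Cga, 2.31 for Lhb, 1.97 for Dlk1 and 0.95 for Isl1. It was 0.42 for Fshb, 0.36 for Nr5a1, 0.17 for Foxl2, 0.14 for Nr0b1, 0.11 for Gata2 and -1.73 for Gnrhr. Likewise Gh1 weighs most in the somatotrope sums and Prl in the lactotrope sums. The same difference was 3.57 for Gh1, 0.73 for Ghrhr and -0.67 for Pou1f1, the somatotrope markers. For the lactotrope markers it was 1.52 (Prl) and -0.041 (Agtr1b).

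**Figure D1:**
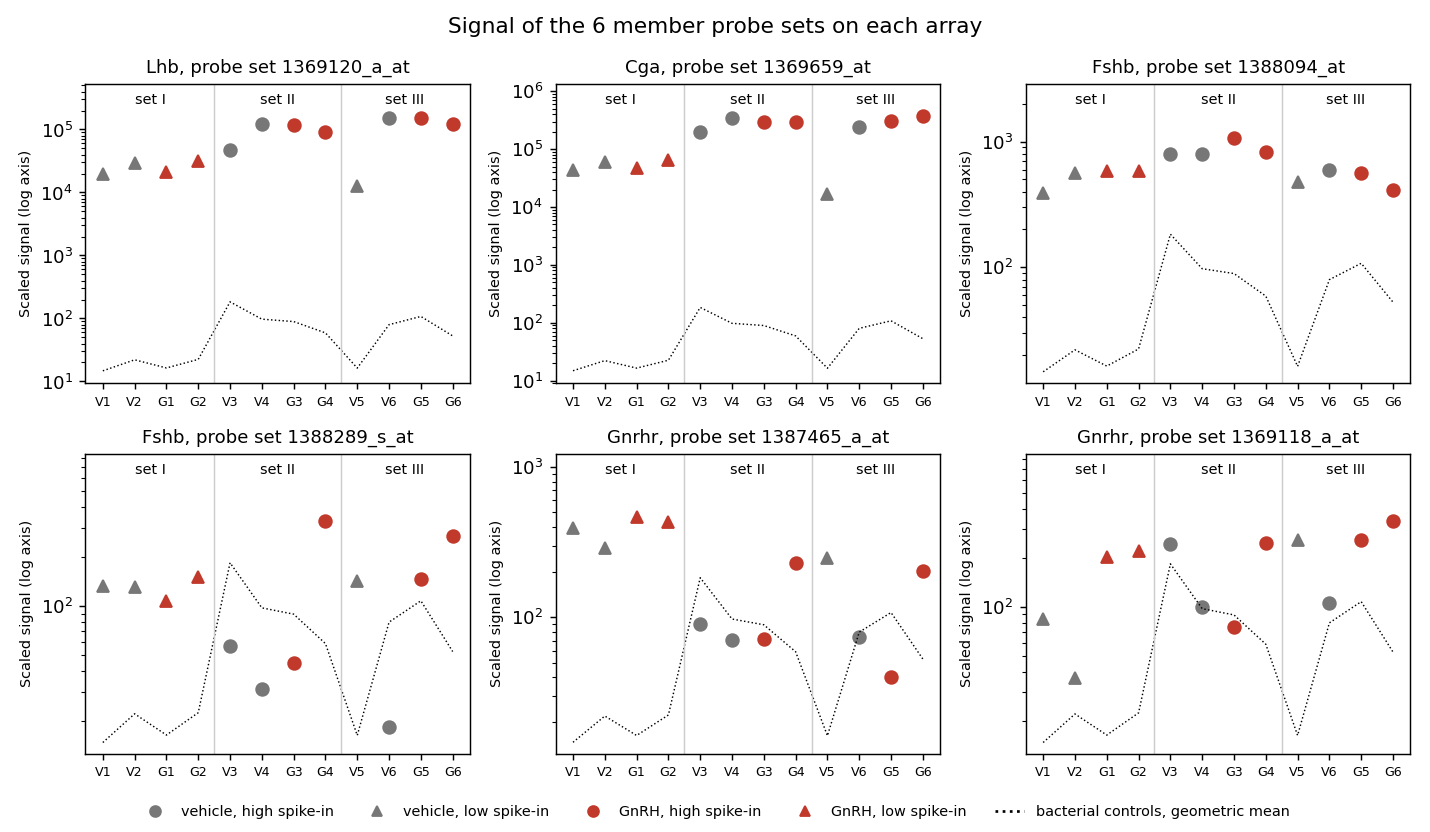
Scaled signal (log axis) of the 6 probe sets on each of the 12 arrays, ordered by enrichment set, with vehicle (V1 to V6) in grey and GnRH (G1 to G6) in red, triangles for low and circles for high spike-in arrays, and a dotted line for the geometric mean of the negative controls. Lhb and Cga sit far above the dotted line everywhere and lower on the 5 triangles, whereas both Gnrhr probe sets and Fshb 1388289_s_at come down to it on several high spike-in arrays.

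Lhb, which encodes the beta subunit of LH, was read by probe set 1369120_a_at. In set I its scaled signal was 19573 and 29260 with vehicle and 21368 and 32012 with GnRH. In set II it was 47207 and 121628 with vehicle and 118209 and 91286 with GnRH, and in set III it was 12563 and 152897 with vehicle and 152379 and 121147 with GnRH. The groups overlapped everywhere, and both GnRH arrays of set III lay between its 2 vehicle arrays, which were the dimmest and the brightest of all 12. Over the 3 sets the GnRH arrays were 1.67-fold higher (95% confidence interval 0.743 to 3.74). The difference in log2(signal + 16), the scale of all log2 values here, was 0.74 with an SE of 0.55 over 6 arrays per group (limma adjusted p = 0.981), so it did not stand out from the spread of the arrays. The same value had p = 0.315 in an exact two-sided permutation test within sets, whose smallest possible p is 0.00926. The difference amounted to 0.13 (set I), 0.46 (set II) and 1.63 (set III), and the limma test of whether it differed between sets gave an adjusted p of 0.979.

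Cga, which encodes the shared alpha subunit, was read by probe set 1369659_at. Its signal in set I was 43179 and 61076 with vehicle and 47726 and 66081 with GnRH. In set II it was 200789 and 348827 with vehicle and 297939 and 289874 with GnRH, and in set III it was 17041 and 241811 with vehicle and 311049 and 371592 with GnRH. Only in set III did both GnRH arrays exceed both vehicle arrays, and the gap between the 2 vehicle arrays there was the widest between any 2 arrays of the same set and agent. The GnRH arrays were 1.86-fold higher over the sets (interval 0.698 to 4.95; log2 0.89 ± 0.67 SE, limma adjusted p = 0.981; exact within-set permutation p = 0.139). Set by set the log2 difference amounted to 0.13 (I), 0.15 (II) and 2.40 (III), and limma's test of its difference between sets gave an adjusted p of 0.958. Over all tested probe sets 0 passed that test, and 5.36% had an unadjusted p under 0.05 in it, among them 0 of the 5 members.

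Fshb, which encodes the beta subunit of FSH, was read by 2 probe sets. Probe set 1388094_at gave 393 and 559 with vehicle and 587 and 583 with GnRH in set I. In set II it gave 796 and 794 with vehicle and 1062 and 833 with GnRH, and in set III 481 and 595 with vehicle and 560 and 413 with GnRH. Both GnRH arrays were above both vehicle arrays in 2 of the sets, and of those in set III one lay within and one below the vehicle range. The log2 difference was 0.13 ± 0.29 (SE; 1.10-fold, interval 0.716 to 1.68; limma adjusted p = 0.993), and in the 3 sets, in order, 0.31, 0.24 and -0.15. This probe set varied little. Its residual SD of 0.23 on the log2 scale stood at the 1.03 percentile of all tested probe sets.

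The other Fshb probe set, 1388289_s_at, was too dim to be tested. Its suffix marks probes that can match more than one transcript. Its signal was 132 and 131 with vehicle and 108 and 150 with GnRH in set I, 57.3 and 31.4 with vehicle and 44.7 and 329 with GnRH in set II, and 142 and 18.3 with vehicle and 146 and 269 with GnRH in set III. On vehicle 3, 4 and 6 and GnRH 3 its signal lay below the geometric mean of the negative controls, up to 23 of 27 of which were brighter. The difference of 0.93 (log2; -0.041, 1.30 and 1.54 in the sets) rests on those dim arrays, and the 2 Fshb probe sets correlated at r = -0.42 over the 12 arrays (log2 signal, a description with no test).

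Gnrhr, which encodes the receptor that GnRH itself acts on, was also read by 2 probe sets. Probe set 1387465_a_at, the brighter one on average, gave 390 and 291 with vehicle and 469 and 431 with GnRH in set I. In set II it gave 90.1 and 70.4 with vehicle and 71.4 and 230 with GnRH, and in set III 249 and 74.5 with vehicle and 40.3 and 205 with GnRH. Both GnRH arrays exceeded both vehicle arrays in set I alone, and the groups overlapped elsewhere. The log2 difference was 0.18 ± 0.53 (SE; 1.13-fold, interval 0.520 to 2.46; limma adjusted p = 0.997), with 0.40, 0.61 and -0.47 in the 3 sets. On vehicle 3, 4 and 6 and on GnRH 3 and 5, between 14 and 23 of the 27 negative controls were brighter than this probe set, so a level below that of the controls could not be told from background there.

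Probe set 1369118_a_at of Gnrhr gave 84.2 and 36.4 with vehicle and 203 and 220 with GnRH in set I. It gave 244 and 99.1 with vehicle and 74.8 and 247 with GnRH in set II, and 258 and 106 with vehicle and 259 and 337 with GnRH in set III. Both GnRH arrays exceeded both vehicle arrays in sets I and III, in the latter by 259 against 258 for the closest arrays, and the order was mixed in set II. On vehicle 3, 4 and 6 and on GnRH 3, between 13 and 15 of the 27 negative controls were brighter than this probe set. On vehicle 2 it was 8 of them and on GnRH 5 it was 6. Its level on vehicle 3, 4 and 6 and GnRH 3 could thus not be told from background. The log2 difference was 0.75 ± 0.53 (SE; 1.68-fold, interval 0.775 to 3.66; limma adjusted p = 0.981; exact within-set permutation p = 0.130), and in the 3 sets, in order, 1.65, -0.16 and 0.77. The 2 Gnrhr probe sets correlated at r = 0.030 over the 12 arrays. In set I vehicle 1 and 2 read 390 and 291 by one and 84.2 and 36.4 by the other, while GnRH 1 and 2 read 469 and 431 by one and 203 and 220 by the other.

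**Figure D2:**
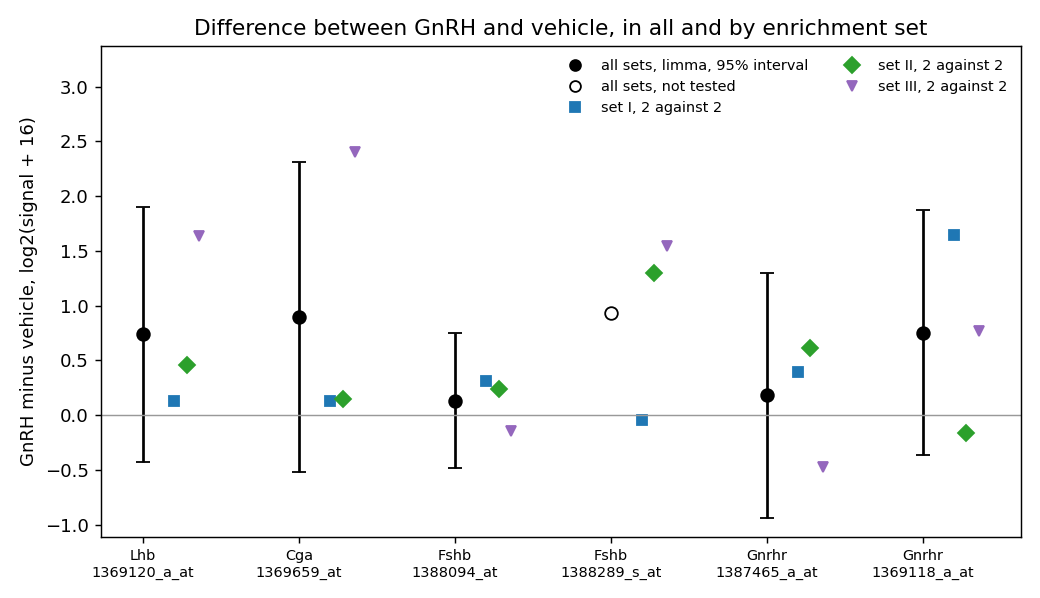
GnRH minus vehicle in log2(signal + 16) for each probe set, as the limma estimate over all sets with its 95% confidence interval (black; open where the probe set was below the filter and was not tested) and as the difference of 2 against 2 arrays within set I (squares), II (diamonds) and III (triangles). All 5 intervals include 0, and the set III values of Lhb and Cga, 1.63 and 2.40, stand well above those of the other two sets.

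By limma, 0 of the 5 tested probe sets passed an adjusted p under 0.05 for GnRH against vehicle, where 0.00537% of all tested probe sets did (1 of 18625, higher, and 0 lower). Unadjusted, a p under 0.05 was reached by 0 of 5 members and by 643 probe sets in all (3.45%). All 5 differences were positive, as were 53.6% of those of all tested probe sets. They ranged from 0.13 to 0.89, where the median of all tested was 0.039. The 5 are not independent, since 2 of them read Gnrhr, and Lhb and Cga had r = 0.96 over the 12 arrays. Under quantile normalization the brightest probe set of each gene was still on the higher side (0.016 for Gnrhr to 0.32 for Lhb). Lhb and Cga, 2 of the 5, were higher in each of the 3 sets, as were 12.6% of all tested. The study counted a gene as raised by GnRH at a fold of at least 1.50 with at least 50% concordance over GnRH-vehicle pairs of arrays. Applied to signal + 16 with 1.50-fold in at least 50% of the 36 pairs, that rule was met by 3 of the 5, against a background of 7.62% higher and 7.60% lower. They were Lhb (52.8% of pairs), Cga (50%) and Gnrhr 1369118_a_at (58.3%). Fshb 1388094_at reached it in 16.7% of pairs and Gnrhr 1387465_a_at in 41.7%. The rule has no term for the spread of a probe set. The residual SD stood at the 75.2 percentile of all tested for Lhb and the 85.3 for Cga. It stood at 45.6 for Gnrhr 1369118_a_at, 48.3 for Gnrhr 1387465_a_at and 1.03 for Fshb 1388094_at. The share of all tested is thus not one of probe sets of like spread.

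Leaving out single arrays moved these values. Without vehicle 5 the log2 difference fell to 0.18 for Lhb and to 0.23 for Cga, as fitted with the set term. By the ratio of the geometric group means, which the study's rule uses without a set term, they were then 1.30-fold and 1.32-fold higher and missed the rule, which 1 of 5 met against a background of 9.69%. The highest values came without vehicle 6, with 1.08 for Lhb and 1.18 for Cga. The rule was met by 1 probe set also without vehicle 1 (Gnrhr 1369118_a_at), without vehicle 2 (Lhb) or without GnRH 5 (Gnrhr 1369118_a_at), and by 2 without GnRH 6. Of all tested probe sets, 10%, 9.55%, 8.6% and 7.69% met it in these settings, in that order. Within the 7 high spike-in arrays 0 of 5 met it, where 20.5% of all tested did. The difference of Gnrhr 1387465_a_at ran from -0.062 without GnRH 4 to 0.51 without GnRH 5, and that of Fshb 1388094_at only from 0.049 to 0.22. In the GnRH group the SD within sets was 0.31 for Lhb and 0.22 for Cga (log2), against 1.59 and 1.61 in the vehicle group, which holds vehicle 5.

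**Figure D3:**
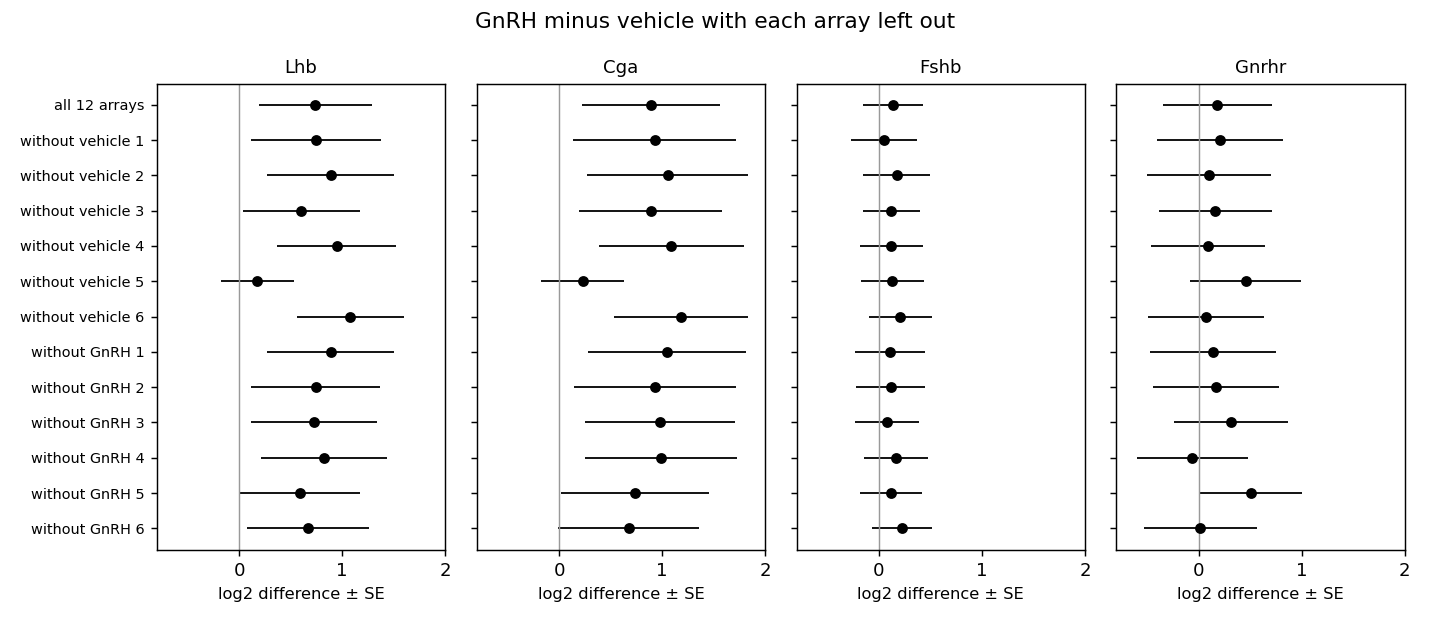
GnRH minus vehicle in log2(signal + 16), with the SE as bars, for the brightest probe set of each gene with all 12 arrays and with each array left out in turn. The point of Lhb and of Cga falls from 0.74 and 0.89 to 0.18 and 0.23 without vehicle 5, whereas the Fshb points keep between 0.049 and 0.22.

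The signals of Lhb, of Cga and of 1 of the 2 Gnrhr probe sets separated the arrays by spike-in level. Lhb was 4.97-fold and Cga 6.77-fold brighter on the 7 high spike-in arrays than on the 5 low ones, with no overlap (47207 to 152897 against 12563 to 32012 for Lhb, and 200789 to 371592 against 17041 to 66081 for Cga). These log2 differences, 2.31 and 2.76, stood at the 99.4 and 99.8 percentiles of all tested probe sets, of which 3.54% were above without overlap. Bright probe sets tended the same way. Of the 100 brightest, 77 were higher on the high arrays, and the median difference of the 100 was 0.50. Gnrhr 1387465_a_at went the other way, with 40.3 to 230 on the high arrays and 249 to 469 on the low ones, 3.32-fold higher on the latter and again without overlap. On the high arrays vehicle 3, 4 and 6 and GnRH 3 and 5, however, 14 to 23 of the 27 negative controls were brighter than it. In all, 6.75% of tested probe sets were below without overlap. Fshb 1388094_at overlapped (413 to 1062 against 393 to 587), and so did Gnrhr 1369118_a_at (74.8 to 337 against 36.4 to 258) and Fshb 1388289_s_at (18.3 to 329 against 108 to 150). The scaling changed these sizes. Under quantile normalization, an alternative added after the data were seen, the high minus low difference was 1.38 for Lhb, 0.52 for Cga with overlap, 0.23 for Fshb 1388094_at and -2.14 for Gnrhr 1387465_a_at, while Gnrhr 1369118_a_at turned from 0.34 to -0.13. The median of all tested probe sets was -0.0083 before and -0.23 after it. The border between low and high arrays was set after their values were seen, and the part of the spike-in level and the 3′ to 5′ ratio in these differences was not tested.

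**Figure D4:**
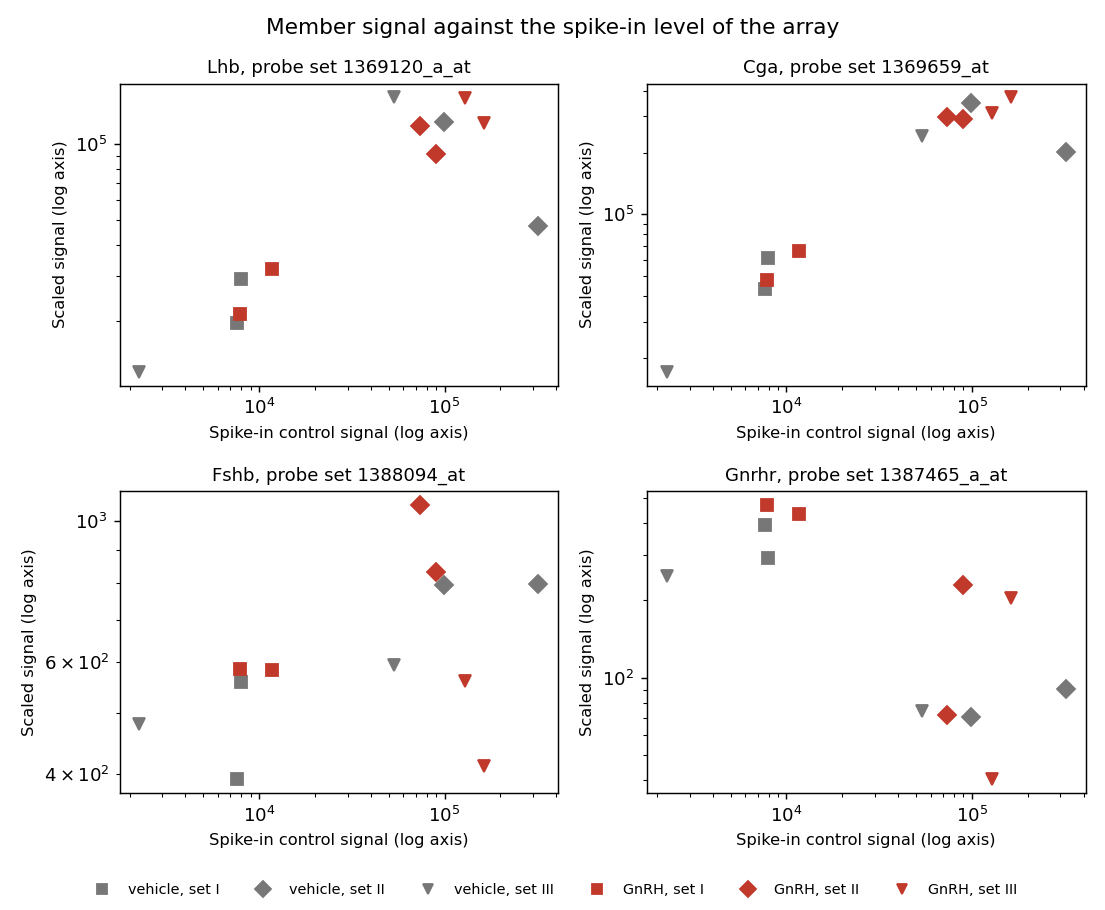
Scaled signal of the brightest probe set of each gene against the geometric mean of the spike-in controls, both on log axes, for the 12 arrays, with vehicle in grey and GnRH in red and squares, diamonds and triangles for sets I, II and III. Vehicle 5, the grey triangle at 2264 on the horizontal axis, lies to the left of and below the set I squares for Lhb and Cga. In these panels it lies still further from the other 3 arrays of its own set.

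Between enrichment sets the level of Lhb was higher in set II than in set I by 1.83 on the log2 scale and in set III than in set I by 1.62. The corresponding values were 2.38 and 1.46 for Cga, -1.77 and -1.62 for Gnrhr 1387465_a_at, and 0.71 and -0.045 for Fshb 1388094_at. By limma's F test between sets, 0 of the 5 passed (adjusted p = 0.138 for Lhb, 0.143 for Cga, 0.246 for Fshb, 0.129 for Gnrhr 1387465_a_at and 0.574 for Gnrhr 1369118_a_at), where 6.02% of all tested probe sets did. Unadjusted, 3 of 5 had a p under 0.05 (Lhb, Cga and Gnrhr 1387465_a_at), against 27.8% of all. Without vehicle 5 the adjusted p of this F test was 0.00576 for Lhb and 0.00673 for Cga, both below 0.05, and 0.0762 for Gnrhr 1387465_a_at. In that setting 2332 of all 18625 tested probe sets passed, against 1122 with all arrays. Set I then held all the low spike-in arrays and sets II and III only high ones, so set and spike-in level cannot be told apart there. With the log2 spike-in level as a covariate the adjusted p was 0.805 for Lhb, 0.990 for Cga and 0.732 for Gnrhr 1387465_a_at. The 4 arrays of set II gave Fshb 1388094_at a signal of 794 to 1062, above all 8 others (393 to 595), a pattern that 2.05% of tested probe sets had. The 4 arrays of set I gave Gnrhr 1387465_a_at a signal of 291 to 469, above all 8 others, as in 5.77% of tested probe sets, and no member was below all others in set I, as 2.6% were. In such cultures a lower share of gonadotropes and less RNA per gonadotrope cannot be told apart. Nor can either be told apart from the spike-in level of the arrays, low throughout set I and high throughout set II.

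Signals near the top of the array were described because no scanner files were used and saturated cells could not be counted. Cga was among the 3 brightest non-control probe sets on 11 of the 12 arrays and the brightest on 1, GnRH 6. Its signal was 80.8 to 93.7% of the highest one on the 5 low spike-in arrays, where it ranked between 2 and 7, and 19.0 to 100% on the 7 high ones, where it ranked 1 or 2. Lhb reached 37.5 to 59.5% of the highest signal on the low arrays, at ranks 37 to 77, and 4.47 to 43.8% on the high ones, at ranks 4 to 13. The low arrays were crowded at the top. On them 26 to 102 probe sets had a signal of at least 50% of the highest, with 102 on vehicle 5, against 1 or 2 on each high array. The highest non-control signal was 21102 on vehicle 5, 48552 to 71708 in set I and 349182 to 1055844 on the high arrays. Lhb and Cga thus lay near the top of the low arrays, whose range ended lower, and whether their signals were limited there was not tested. Growth hormone (Gh1), brightest on 6 arrays, and the ribosomal protein gene Rps23, brightest on 5, shared the top. Their high minus low spike-in differences were 3.57 and 1.28 (log2).

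**Figure D5:**
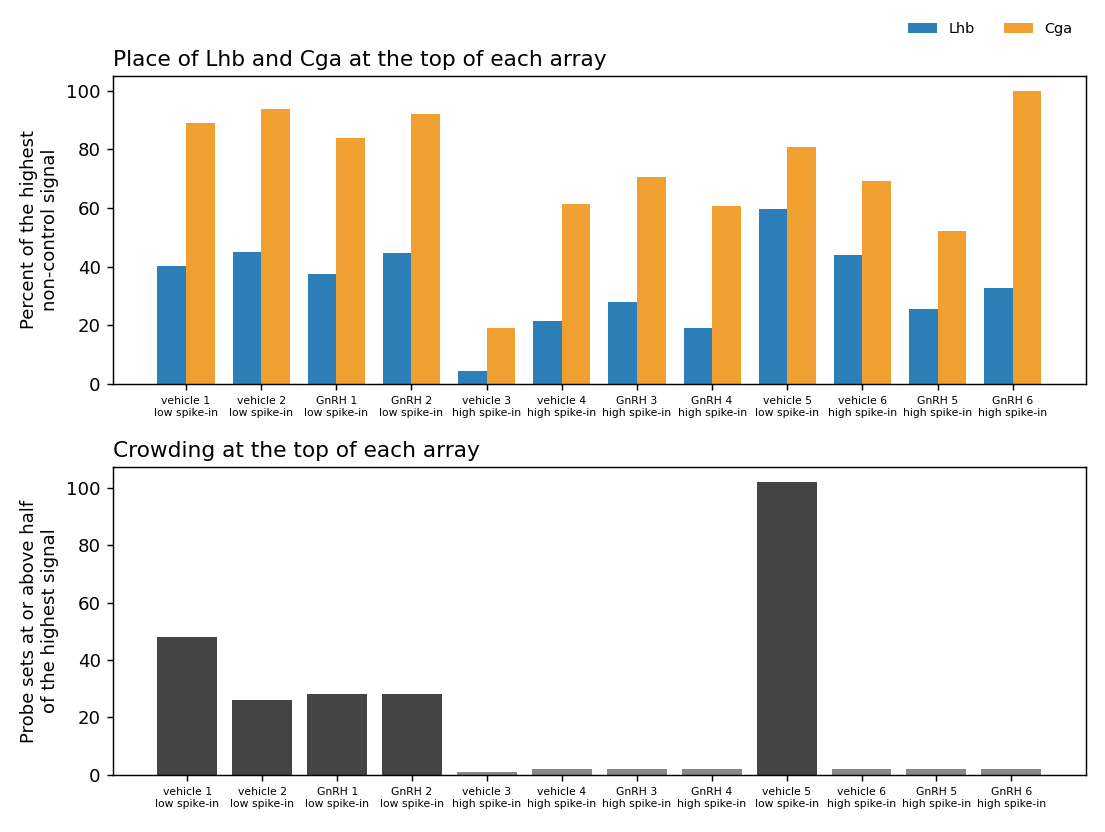
Upper panel: signal of Lhb (blue) and Cga (orange) as a percentage of the highest non-control signal of each array, 1 pair of bars per array. Lower panel: number of non-control probe sets with at least 50% of that highest signal, 102 on vehicle 5 and 26 to 48 on the set I arrays but 1 or 2 on each of the 7 high spike-in arrays.

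The members moved together to different degrees over the 12 arrays, which share their scaling, their spike-in level and their preparation. Lhb and Cga had r = 0.96 over all 12 (log2 signal), 0.62 over the 7 high and 0.97 over the 5 low spike-in arrays. Lhb and Gnrhr 1387465_a_at had r = -0.78 over all, -0.29 over the high and 0.49 over the low arrays. For Cga and Gnrhr 1387465_a_at these were -0.72, 0.18 and 0.63. Fshb 1388094_at had r = 0.42 with Lhb and 0.49 with Cga over all arrays, -0.36 and -0.32 over the 7 high ones, and 0.54 and 0.43 over the 5 low ones. Among these pairs the sign over all arrays thus differed from that over the high arrays for Fshb with Lhb and Cga. It differed from that over the low arrays for Gnrhr with Lhb, from both for Gnrhr with Cga, and from neither for Lhb with Cga.

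Among 10679 other genes ranked by Pearson's r of log2 signal over the 12 arrays, those most like Lhb were Eef1a1 (r = 0.98, a translation elongation factor), Cga (0.96), Ces1e, Hhipl1 and Rps23 (0.95, 0.95 and 0.94). Most like Cga were Klk10 (0.97), Eef1a1 (0.96), Lhb (0.96), L3hypdh (0.96) and Hhipl1 (0.95). Eef1a1 was itself 1.92 higher (log2) on the high spike-in arrays, and its r with Lhb was 0.97 within the 7 high and 0.93 within the 5 low ones. Klk10 had r = 0.26 with Cga within the 7 high arrays. Most like Fshb 1388094_at were Apol3l1 (0.91), RT1-DMb (0.91), Gdf9 (0.89), Mx2 (0.87) and Nr1h3 (0.87). Most like Gnrhr 1387465_a_at were Nifk (0.97), Fos (0.96, a subunit of the AP-1 factor), Zfp423 (0.95), Fahd1 (0.95) and Tmem263 (0.95), all lower on the high spike-in arrays by 0.98 to 2.81.

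Genes of the same pathway were taken from lists. Of 38 factors known at gonadotropin and receptor promoters 27 were tested, 17 on the higher and 10 on the lower side, with a median of 0.33 against 0.039 for all tested probe sets. By limma 1 passed, Fosb, an AP-1 subunit gene, which rose by 2.29 ± 0.32 (log2, SE; adjusted p = 0.0411), with 2.03, 3.01 and 1.84 in the 3 sets. That call was lost, with 0 probe sets called in all, in 11 of the 12 single-array omissions, all but that of vehicle 3. The same held with a pseudocount of 1, quantile normalization, no variance trend, no set term or the replicate number as a block. Egr1, the factor for the EGR-type matches in the Lhb promoter, differed by 0.77 ± 0.29 (SE; limma adjusted p = 0.981), with 0.32, 1.61 and 0.38 in the sets. Nr4a1, an orphan nuclear receptor gene, differed by 1.16. Of the factors that mark the gonadotrope, Nr5a1 differed by -1.15, Foxl2 by -0.67, Nr0b1 by 0.47 and Gata2 by 0.20, and Pitx1, a wider pituitary factor, by -0.47, and none of these 5 passed.

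The GnRH receptor's signalling components had 22 of 28 tested, 8 on the higher and 14 on the lower side, with a median of -0.094 and 0 called by limma. Itpr3, a calcium release channel of the endoplasmic reticulum, differed by -1.42, Rgs4, a regulator of G-protein signalling, by 0.65, and Prkce, a protein kinase C, by 0.58. Activin, inhibin and bone morphogenetic protein genes, which act on Fshb, had 11 of 14 tested, 7 on the higher and 4 on the lower side, a median of 0.085 and 0 called. Among them Inhbb, a subunit of activin B, differed by -1.02, with 0.21, -3.18 and -0.099 in the sets, and Fstl3 and Fst, which bind activin, by 0.48 and 0.61. Granule and processing genes, through which the hormones are stored and released, had 16 of 19 tested, 12 on the higher and 4 on the lower side, a median of 0.23 and 0 called. Scg2 and Cpe each differed by 0.68 and Syt4 by 0.55. The receptors to which the hormones bind act in gonads and thyroid. Of 3 listed, 2 had a probe set with 1 symbol (Fshr, the FSH receptor, did not) and 0 passed the filter, and the signal of Lhcgr, the LH receptor, ran from 19.6 to 431.

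The other pituitary hormones were given beside the members because their cells share the cultures. Tshb, which pairs with Cga in thyrotropes, had a signal of 2596 to 24007 and differed between GnRH and vehicle by 0.21 and between high and low spike-in arrays by -0.24, where Cga differed by 2.76. Prl differed by 0.37 and Gh1 by 0.67 between GnRH and vehicle, and by 1.52 and 3.57 between spike-in levels. Gh1 had a set III difference of 2.54, beside 1.63 for Lhb and 2.40 for Cga in the same 4 arrays. Pomc, the precursor of adrenocorticotropin, differed by -1.77 between GnRH and vehicle (SE 0.50, limma adjusted p = 0.981) and by -2.77 between spike-in levels. None of these 4 passed for GnRH against vehicle. By limma's F test between sets Pomc alone of them passed (adjusted p = 0.0189).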

How the data were processed

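RNA was amplified in 2 rounds with T7 RNA polymerase and labelled with biotin, per the labels. The authors deposited linear intensity values, 1 signal per probe set, made with GCOS (Affymetrix GeneChip Operating System), per the submitters' processing notes. Neither version nor settings were stated there. The table holds 31099 probe sets, 57 of them array controls; 20826 carry 1 gene symbol in the platform annotation, 436 several and 9780 none. All arrays were brought to a trimmed mean of 500 (2% off each end), a pseudocount of 16 was added and log2 was taken, so that ratios between dim signals are understated. Folds between group means moved either way. With the pseudocount they went from 1.81 to 1.68 for Gnrhr 1369118_a_at and from 1.126 to 1.132 for Gnrhr 1387465_a_at. Probe sets were tested from the 40th percentile of mean log2 signal upward. GnRH and vehicle were compared with limma 3.58.1 (R 4.3.3, lmFit and eBayes with an intensity trend, enrichment set as covariate), with F tests for the set and for the agent by set interaction, each adjusted by Benjamini-Hochberg over 18625 probe sets. The code was tested on simulated data. Fold intervals cover the spread between samples, and the number of arrays limits the precision. Single values also had an exact two-sided permutation test over 216 within-set assignments of agent.

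Where a gene had several tested probe sets, the brightest on average stood for it. Genes named are the 4 members, the 5 genes most like each of them, of each list those that passed and the 3 with the smallest p, and some hormone, receptor and promoter factor genes; the genes at the top of the arrays were named after their values were seen. The members and the lists were chosen with earlier results of these data known. Replicate numbers did not pair the samples: same-numbered vehicle and GnRH arrays correlated in their deviations from the group means at -0.22 to 0.65, and 2 of 6 correlated best with their own number. Alternatives changed the pseudocount, filter, normalization, variance trend, array weights, covariates, probe set and arrays. Promoters were searched in RefSeq sequences of build GRCr8, and no probe set was aligned.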

Additional observations from a re-analysis of the deposited data

Results flagged for a closer look

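For Gnrhr 1369118_a_at, GnRH 3 (74.8) stood apart from the other 5 GnRH arrays (203 to 337). Its gap to the nearest of them on the log2 scale was 0.648 of the group's range, above Dixon's 95% critical value for 6 samples. There were 12 such groups, of 6 probe sets and 2 agents, and chance alone would mark about 1 group in 20.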

How the results depend on the processing

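The tests of the GnRH difference in Lhb, Cga, Fshb and Gnrhr had adjusted limma p-values of at least 0.858 under every alternative run, including each array left out. The direction turned in 3 genes: Lhb at -0.059 without vehicle 3 and vehicle 5 together, Fshb at -0.15 and Gnrhr at -0.47 in set III alone, and Gnrhr at -0.062 without GnRH 4. With each array left out in turn the differences ran from 0.18 to 1.08 for Lhb, 0.23 to 1.18 for Cga, 0.049 to 0.22 for Fshb and -0.062 to 0.51 for Gnrhr. Quantile normalization gave 0.32 for Lhb and 0.090 for Cga, array weights 0.28 and 0.36, the spike-in covariate 0.32 and 0.33, and the 7 high spike-in arrays 0.20 and 0.29. The replicate number as a block in place of the set, although the numbers did not pair the samples, gave 0.74 for Lhb, 0.89 for Cga, 0.13 for Fshb and 0.18 for Gnrhr, with 0 probe sets called of all tested in place of 1; over all alternatives that number was 0 to 2 (2 with array weights). The test between sets passed with array weights for Lhb (adjusted p = 0.00491), Cga (0.0111) and Gnrhr (0.0173), and without vehicle 3 and vehicle 5 together for Lhb (0.00021) and Cga (0.000665). Single omissions moved it from 0.00576 to 0.362 for Lhb and from 0.00673 to 0.358 for Cga, lowest without vehicle 5. Probe sets called between sets numbered 26 with the spike-in covariate and 4529 with array weights, against 1122. They numbered 2332 without vehicle 5 and 3806 without vehicle 3 and vehicle 5 together. The study's rule, with alternatives chosen after seeing the data, was met by 1 to 3 of the 5 tested member probe sets with each array left out. It was met by 0 in the 7 high spike-in arrays. Of all tested probe sets, 7.65 to 10.4% met it with each array left out and 20.5% in the 7 arrays. The agent by set test of all 4 genes kept its side of the threshold in 21 alternatives each, while without vehicle 4 it called 815 of all probe sets. The causes were not tested.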
